A study of Mus musculus with 15 samples.

Results

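The galectins Lgals1, Lgals3, Lgals8 and Lgals9 and the galectin-3 binding protein Lgals3bp were followed in the mouse line RAW264.7, whose macrophage-like cells form osteoclasts when given RANKL, the cytokine that drives osteoclast formation. These 5 genes, of the 8251 represented on the array, were chosen by name, each having a probe set annotated to that symbol alone. This gave 6 probe sets, since Lgals9 has 2. The group was also selected on results of these arrays. Which values were used is not stated, and RANKL minus control differences, such as the low Lgals9 signal at day 5, are taken to be among them. The differences between RANKL and control cells are therefore given as a description, without p-values. RNA was hybridised to 15 Affymetrix arrays, 1 sample on each. RANKL cells gave 1 array at day 1 and 2 arrays for each of days 2, 4 and 5. Control cells, cultured for the same times without RANKL, gave 1 array at day 1, 2 at each of days 2, 3 and 4, and 1 at day 5. The line was kept in serum-containing alpha-MEM, and on days 0 and 3 the cells were given serum-free alpha-MEM with RANKL or without it. The RANKL dose is not given in the sources used here, and no day 3 RANKL array was analysed here. The labels call RANKL cells multi-nuclear at days 4 and 5 and all other cells mononuclear, and they do not say whether replicate arrays come from separate cultures, so errors may hold technical spread only. A cell line is a model without the other cells of bone.

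Galectins are lectins that bind galactose-containing sugars on glycoproteins, inside and outside the cell. Galectin-1 is the prototype form with its carbohydrate-binding domain alone, galectin-3 is the chimera form with an added tail that lets it assemble, and galectin-8 and galectin-9 are tandem-repeat forms with a pair of different binding domains. Galectin-3 is the classical macrophage antigen Mac-2, and Lgals3bp encodes a secreted glycoprotein that carries its ligands. Galectin-8 marks damaged endosomes and lysosomes for removal. Lgals9 and Lgals3bp are known as genes that interferons induce, which makes their upstream sequences of interest here.

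The 250 bases upstream of the annotated starts of Lgals9 and Lgals3bp are shown 5′ to 3′ from RefSeq (GRCm38.p6). Of the genes followed, these had the lowest RANKL minus control differences over days 1, 2, 4 and 5. Capitals mark matches to the core of the interferon-stimulated response element, which reads GAAA, any 2 bases, then GAAA, and was searched on both strands. The Lgals9 stretch is chr11:78984925-78985174 on the minus strand, and that of Lgals3bp is chr11:118401960-118402209 on the minus strand.
Lgals9: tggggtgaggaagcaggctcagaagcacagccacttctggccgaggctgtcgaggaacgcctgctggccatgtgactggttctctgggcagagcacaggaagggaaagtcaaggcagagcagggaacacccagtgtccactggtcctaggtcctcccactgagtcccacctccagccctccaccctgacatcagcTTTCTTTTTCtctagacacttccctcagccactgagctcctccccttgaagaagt
Lgals3bp: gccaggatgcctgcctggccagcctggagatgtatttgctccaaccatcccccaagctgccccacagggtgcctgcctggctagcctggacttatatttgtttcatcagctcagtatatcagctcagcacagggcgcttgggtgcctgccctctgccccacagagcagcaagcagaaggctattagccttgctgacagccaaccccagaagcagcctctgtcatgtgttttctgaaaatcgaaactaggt

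Lgals9 held 1 match, on the opposite strand, whose first base lies 55 bases before the start. Lgals3bp held 0 matches in this window, and so did Lgals3 and Lgals8. The core occurred in 978 of 32851 promoter entries of the same length (2.98%). Among the interferon-induced genes set beside the galectins below, 9 of the 21 with a promoter entry held it (42.9%), among them Isg15, Ifit1, Cxcl10 and Igtp, against 936 of 27025 genes (3.46%). Of the 5 genes whose signals were most like those of Lgals9, named below, 4 have a promoter entry and 0 of these held it. The core of the STAT binding site, TTC, any 3 bases, then GAA, matched 0 times in the 4 galectin windows and in 2306 of all entries (7.02%). Both motifs were chosen after the expression values had been seen, and a match describes letters only.

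Signals are in MAS5 units, scaled by the authors to a trimmed mean of 500 per array. Array medians lay between 102 and 148. The ratio of 3′ to 5′ probes of beta-actin, which reflects how intact the RNA is, lay between 1.02 and 1.39 on RANKL arrays and between 1.01 and 1.25 on control arrays. The summed signal of 7 macrophage markers ran from 34631 to 63592 on RANKL arrays and from 52098 to 65100.2 on control arrays. Over all arrays Cd68 ran from 8314 to 11234, Adgre1 from 162 to 1554.5 and Itgam from 42.4 to 2278. The summed signal of 6 osteoclast markers ran from 5598 to 31168 on RANKL arrays and from 1064 to 6192 on control arrays. Of these 6, Calcr reached at most 27.2 and Itgb3 at most 78.2. Acp5, the osteoclast acid phosphatase, had 5066 to 12283 on the RANKL arrays of days 2, 4 and 5 and 43.5 to 257 on the control arrays of those days, but at day 1 it had 535 with RANKL and 992 without. Summed signals of markers of other cell types overlapped between RANKL and control arrays (T cell 58.2 to 84.5 and 63.7 to 102, B cell 218 to 366 and 197 to 374, neutrophil 303 to 402 and 243 to 375, erythroid 64.7 to 177 and 49.9 to 192, stromal 1059 to 1517 and 934 to 1631, RANKL before control).

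Galectin-9 was lower with RANKL from day 2 on. Lgals9 (chromosome 11, 78962979 to 78984924 in GRCm38.p6, as are the positions that follow) has 2 probe sets. The values of Lgals9 are those of the first unless the second is named. With RANKL the signal was 1058 at day 1, 261 and 231 on the day 2 arrays, 637 and 213 on the day 4 arrays, and 235 and 137 on the day 5 arrays. In control cells it was 953 at day 1, 1014 and 1363 at day 2, 1488 and 847 at day 3, 1194 and 993 at day 4, and 2591 at day 5. The 6 RANKL arrays of days 2, 4 and 5 (137 to 637) lay below all 5 control arrays of those days (993 to 2591), which 70 of 12422 probe sets did (0.564%). They also lay below the control arrays of days 1 and 3, while the RANKL day 1 array lay among the controls. In a bulk measurement, fewer cells with the transcript and less transcript per cell cannot be told apart.

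Ordered by mean, Lgals9 was lowest in RANKL cells at day 5 (186 ± 69.5, SD, n = 2), then at day 2 (246 ± 21.2) and day 4 (425 ± 299.8). The ranges of these neighbours overlapped, so their order is not resolved. The wide spread at day 4 is that of replicate 1 (637) against replicate 2 (213). The single arrays of control day 1 (953) and RANKL day 1 (1058) came next. Control cells of the later days followed, with means of 1093 ± 143 at day 4, 1168 ± 453 at day 3 and 1188.5 ± 247 at day 2 (n = 2 each), whose ranges overlapped as well. The day 5 control array stood apart at the top, and it is the only control array of that day analysed here.

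**Figure D1:**
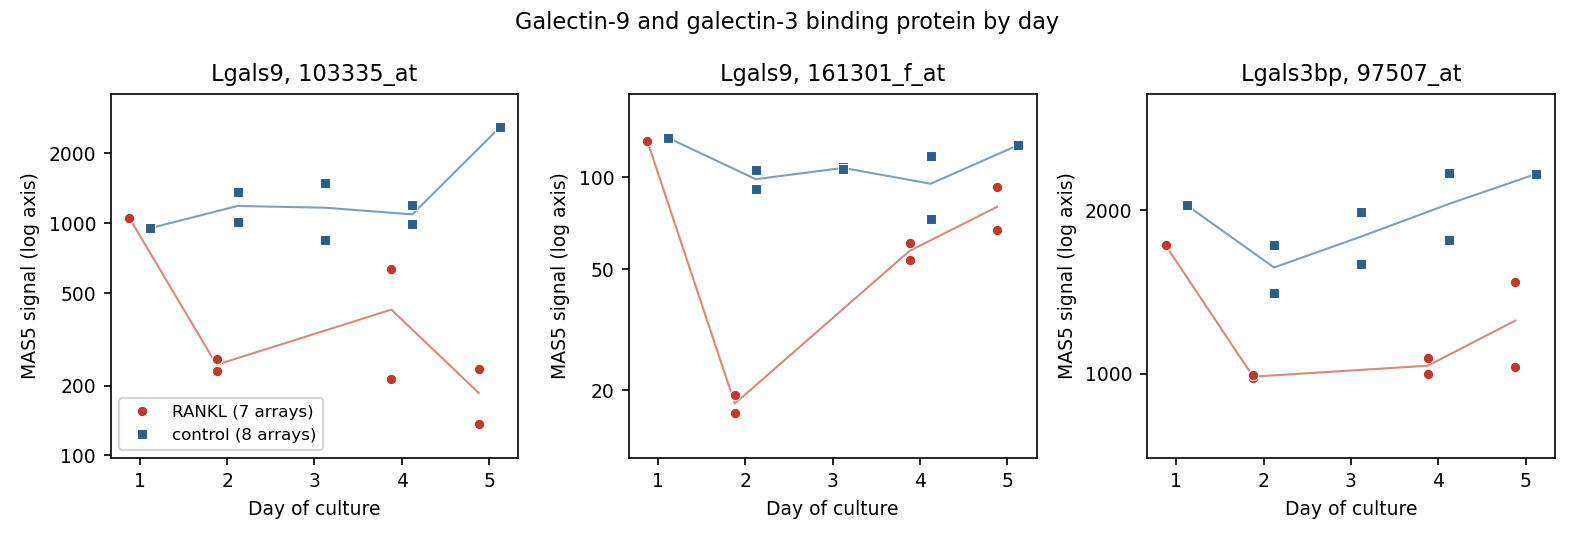
MAS5 signal on a log axis against day of culture for the first (left) and second (middle) Lgals9 probe set and for Lgals3bp (right); each point is 1 array (circles RANKL, squares control) and lines join group means. From day 2 on, Lgals9 lies at 137 to 637 with RANKL and at 847 to 2591 without, and at day 1 the 2 arrays have 1058 and 953.

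On the log2(signal + 32) scale, the Lgals9 difference, RANKL minus control, was 0.15 ± 0.59 at day 1 (standard error from limma; 1 array against 1), -2.12 ± 0.41 on day 2, -1.47 ± 0.41 on day 4 and -3.63 ± 0.51 at day 5 (2 against 1). These are 4.36-fold, 2.77-fold and 12.4-fold lower levels at days 2, 4 and 5. The size at day 5 has both a lower RANKL mean and the high control array in it. Over the 4 days the difference was -1.77 ± 0.24, beside a median of 0.01 over all probe sets. The counts that follow are a description, since these differences are taken to be among the values used in the selection. At day 1 limma with Benjamini-Hochberg adjustment put 0 of the 6 galectin probe sets past the threshold. At day 2 it put both Lgals9 probe sets past it (0.853% of all probe sets were, 0.539% lower with RANKL). At day 4 it put 0 past it (0.266%, 0.0483% lower), and at day 5 the first Lgals9 probe set (0.918%, 0.403% lower). Over the 4 days it put the first Lgals9 probe set and Lgals3bp past it (1.09%, 0.539% lower and 0.555% higher). Nothing is read from these counts about the galectins.

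The day 5 difference of the first Lgals9 probe set ran from -3.96 to -3.26 over 22 alternatives, but each of them holds the lone control day 5 array (2591), without which day 5 has no control. Its day 2 difference was no longer past the threshold in 12 of 23 alternatives. Among single arrays, these were either day 2 control array (-2.33 without replicate 1 and -1.92 without replicate 2), either RANKL day 2 array (-2.20 without replicate 1 and -2.04 without replicate 2), and any control array of day 3 or day 4, which left the difference at -2.12. The 4-day call was lost without the control day 5 array, when day 5 leaves the mean (-1.15). At day 4 the difference passed without RANKL replicate 1 (-2.19).

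The second Lgals9 probe set belongs to a class (marked f by the manufacturer) whose probes can pick up related sequences. Its signals were 131 at RANKL day 1, 19.4 and 16.8 at day 2, 53.7 and 61.1 at day 4 and 67.0 and 93.1 at day 5. In control cells they were 135 at day 1, 91.8 and 105 at day 2, 108 and 107 at day 3, 118 and 73.0 at day 4 and 128 at day 5. It had the same sign as the first at days 2, 4 and 5, but not the same course: the difference was -1.38 ± 0.28 at day 2, -0.49 ± 0.28 at day 4 and -0.52 ± 0.34 at day 5. Of its 6 RANKL arrays of those days, 5 lay below the 5 control arrays, a pattern whose share of all probe sets was not counted. Its lowest RANKL level was that of day 2, and its RANKL arrays of day 5 lay above those of day 4. Its day 2 call was lost in 15 of 22 alternatives, among them each leave-out of an array of days 2, 3, 4 and 5 except control day 5 (-1.46 to -1.31). The second probe set was correlated with the log2 beta-actin ratio at r = -0.56 over 15 arrays, and with that ratio as a covariate its day 2 difference was -1.33 and did not pass. Over the 4 days (-0.60 ± 0.16) it passed without control day 1 or RANKL day 1 (-0.80 each).

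Lgals3bp was also lower with RANKL, by less. The gene (chromosome 11, 118392747 to 118401959) had signals of 1724 at RANKL day 1, 980.3 and 996 at day 2, 1069 and 1001 at day 4 and 1475 and 1031 at day 5. In control cells it had 2044 at day 1, 1411 and 1728 at day 2, 1989 and 1593 at day 3, 2345 and 1765 at day 4 and 2334 at day 5. On each day the RANKL arrays lay below the control arrays, and over days 2, 4 and 5 the groups overlapped by RANKL day 5 replicate 1 alone. How many of all probe sets had these patterns was not counted, so nothing is read from them about Lgals3bp.

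The differences were -0.24 ± 0.30 at day 1, -0.64 ± 0.21 on day 2, -0.95 ± 0.21 on day 4 and -0.90 ± 0.26 at day 5, and -0.69 ± 0.12 over the 4 days, a 1.61-fold lower level. The 4-day call was lost in 7 of 25 alternatives, among them the fits without control day 2 replicate 2 (-0.65), control day 4 replicate 1 (-0.64), control day 5 (-0.61), RANKL day 2 replicate 2 (-0.69) and RANKL day 4 replicate 2 (-0.67). Without RANKL day 5 replicate 1, Lgals3bp also passed at day 5 (-1.15). The beta-actin ratio, which was highest on RANKL day 2 replicate 2 (1.39) and RANKL day 4 replicate 2 (1.34), was correlated with Lgals3bp at r = -0.45 over 15 arrays, and with this ratio as a covariate the 4-day difference was -0.74 and did not pass.

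**Figure D2:**
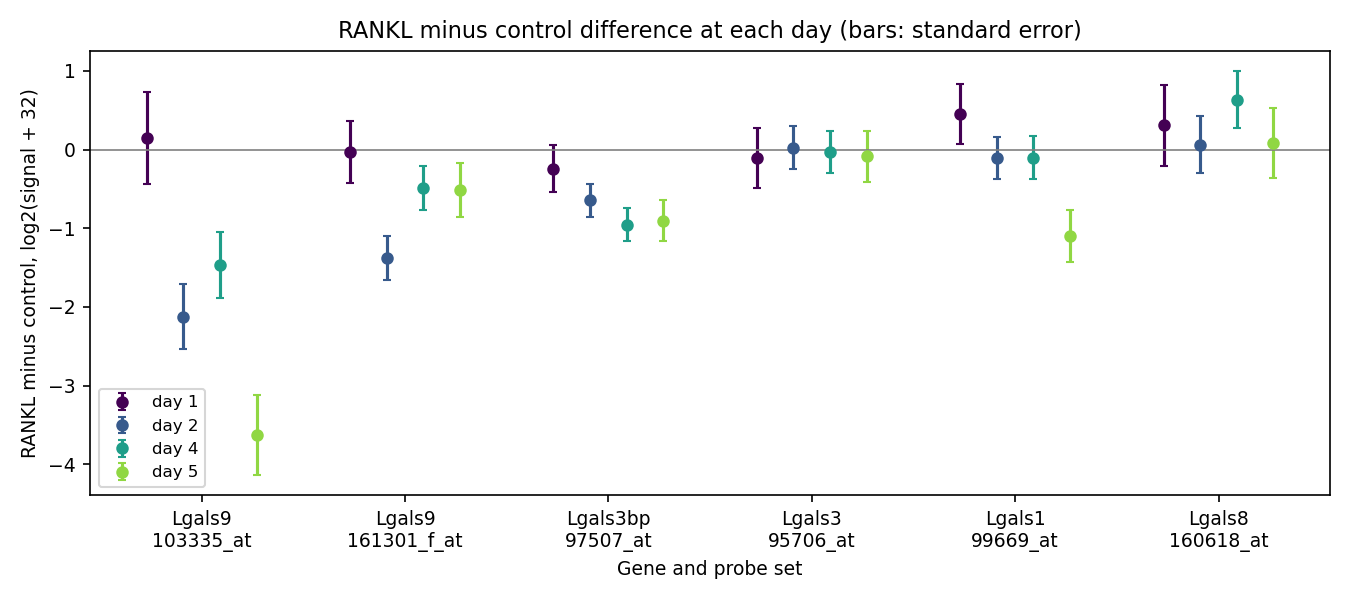
RANKL minus control difference on the log2(signal + 32) scale for the 6 probe sets at days 1, 2, 4 and 5, with limma's standard error as bars. Lgals9 reaches -3.63 at day 5, Lgals3bp runs from -0.24 to -0.95, and Lgals3 lies between -0.11 and 0.03 on all days.

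The Lgals3 differences between RANKL and control cells were smaller than their standard errors on all 4 days. Lgals3 (chromosome 14, 47373860 to 47386167) had 7479 at RANKL day 1, 8544 and 12800.1 at day 2, 8188 and 13122 at day 4 and 7496 and 6408 at day 5. In control cells it had 8076 at day 1, 10948 and 9648 at day 2, 10996 and 8372 at day 3, 11045 and 10203 at day 4 and 7363 at day 5. The 2 highest of all 15 arrays were RANKL day 2 replicate 2 and RANKL day 4 replicate 2. The differences were -0.11 ± 0.38, 0.03 ± 0.27, -0.03 ± 0.27 and -0.09 ± 0.33 on days 1, 2, 4 and 5. Those same 2 arrays had the highest beta-actin ratios (1.39 and 1.34), and over the 15 arrays Lgals3 was correlated with the log2 ratio at r = 0.64; the part of RNA quality in the Lgals3 values was not tested. At day 5, Lgals3 was low with and without RANKL, below every array of days 2, 3 and 4 on all 3 arrays. The share of all probe sets with this pattern was not counted.

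Galectin-1 was lowest on the RANKL arrays of day 5. Lgals1 (chromosome 15, 78926725 to 78930465) had 20466 at RANKL day 1, 12141 and 20457 at day 2, 12422 and 11796 at day 4 and 7824 and 5487 at day 5. In control cells it had 14942 at day 1, 19014 and 15122 at day 2, 14189.5 and 13759 at day 3, 13809 and 12232 at day 4 and 14063 at day 5. Both RANKL day 5 arrays lay below all 13 other arrays, a pattern that 138 of 12422 probe sets had (1.11%) and that was looked for after the values were seen. The difference was 0.45 ± 0.38 at day 1, -0.11 ± 0.27 on day 2, -0.10 ± 0.27 on day 4 and -1.10 ± 0.33 at day 5, where it did not pass. An array-wide measure moved with Lgals1: its log2 signal was correlated with the log2 array median at r = -0.68 over 15 arrays, and the part of this in its values was not tested.

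Lgals8 (chromosome 13, 12439402 to 12464977) overlapped between treatments over days 2, 4 and 5, and was higher on the later days in both. With RANKL its signals were 95.6 at day 1, 103 and 97.6 at day 2, 261 and 259.5 at day 4 and 363 and 142 at day 5. In control cells they were 71.2 at day 1, 95.0 and 94.7 at day 2, 221 and 186 at day 3, 199.5 and 121 at day 4 and 215 at day 5. All 6 arrays of days 1 and 2 (71.2 to 103) lay below all 9 later arrays (121 to 363). The share of all probe sets with this pattern was not counted, so nothing is read from it about Lgals8. Change with culture time was common, with 15% of all probe sets past the threshold in control cells and 14.8% in RANKL cells. Within a day the RANKL minus control differences ran from 0.06 ± 0.36 at day 2 to 0.63 ± 0.36 at day 4. The RANKL day 5 replicates stood far apart, at 363 and 142.

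**Figure D3:**
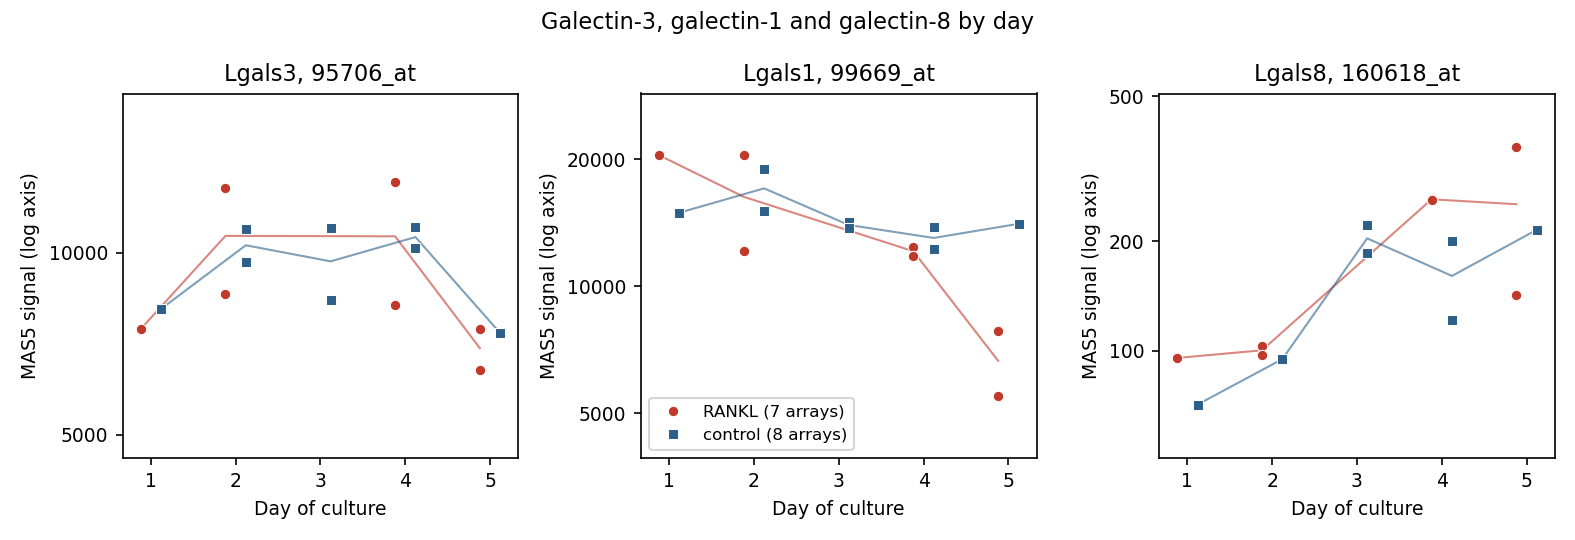
MAS5 signal on a log axis against day of culture for Lgals3, Lgals1 and Lgals8; each point is 1 array (circles RANKL, squares control) and lines join group means. Lgals1 is at 7824 and 5487 on the RANKL day 5 arrays and at 14063 in control cells, and Lgals8 lies at 71.2 to 103 at days 1 and 2 and at 121 to 363 later.

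Culture time was compared within each treatment. In control cells, the mean of days 3 and 4 minus the mean of days 1 and 2 leaves out the lone day 5 array. Lgals8 had the largest difference (0.88 ± 0.29, limma adjusted p = 0.0633) and did not pass. Of the 6 galectin probe sets 0 passed and 1, Lgals8, had an unadjusted p under 0.05, while 15% of all probe sets passed (8.55% higher later and 6.47% lower). The Lgals8 difference passed in 5 of 25 alternatives, among them the fits without either RANKL day 5 array, which left it at 0.88. Lgals9 (0.06 ± 0.33, limma adjusted p = 0.946), Lgals3bp (0.09 ± 0.17, 0.821), Lgals3 (0.15 ± 0.21, 0.759) and Lgals1 (-0.24 ± 0.21, 0.562) did not pass either. With days 4 and 5 against days 1 and 2, the Lgals9 difference was 0.65.

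In RANKL cells, the mean of days 4 and 5 minus the mean of days 1 and 2 was 1.09 ± 0.29 for Lgals8 and -1.01 ± 0.21 for Lgals1, the 2 of 6 galectin probe sets past the threshold, where 14.8% of all probe sets were (8.98% higher later and 5.82% lower). It was -0.91 ± 0.33 for Lgals9, -0.20 ± 0.17 for Lgals3bp and -0.06 ± 0.21 for Lgals3. The Lgals9 value has the high day 1 array in it: against day 2 alone it was 0.08. It passed without RANKL day 4 replicate 1 (-1.27), and the second Lgals9 probe set passed without RANKL day 1 (0.99). The Lgals8 call was lost without RANKL day 2 replicate 2 (1.08), either RANKL day 4 array (1.09 each) or RANKL day 5 replicate 1 (0.80). It was also lost after quantile normalization (0.889). With the beta-actin ratio as a covariate both the Lgals8 call (1.185) and the Lgals1 call (-0.86) were lost. The change in the RANKL effect itself, late minus early, was past limma's threshold for 0 of 6 galectin probe sets (0.0403% of all probe sets were). It was 0.18 ± 0.43 for Lgals8, -0.77 ± 0.32 for Lgals1 and -1.56 ± 0.49 for Lgals9. Against day 2 alone, without the day 1 arrays, the Lgals9 value was -0.43. The second Lgals9 probe set had the opposite sign, at 0.20 ± 0.33, and 0.88 against day 2 alone.

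Across arrays, the genes whose log2 signals were most like those of Lgals9 among 4284 others with a mean signal of at least 200 were Shisa5, an endoplasmic reticulum protein (r = 0.96 over 15 arrays), Ifih1, the RNA sensor MDA5 (0.95), Tap1, the antigen peptide transporter (0.94), Dab2, an endocytic adaptor (0.94), and Bin1, a membrane-shaping protein (0.92). These arrays share treatment and day, so r was also taken within treatments, which leaves the day in it. Lgals9 had 1058 on the RANKL day 1 array and 137 to 637 on the later RANKL arrays. Within the 7 RANKL arrays it was 0.93 for Shisa5 and 0.94 for Ifih1, and within the 8 control arrays 0.90 and 0.84. Tap1, Dab2 and Bin1 had 0.88 to 0.91 within RANKL arrays and 0.51 to 0.58 within control arrays.

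For Lgals3bp the most like genes were Gch1, which makes the cofactor tetrahydrobiopterin (r = 0.92), Tap1 (0.89), Flt1 (0.86), Ogfr (0.85) and Lgals9 itself (0.85). Lgals9 and Lgals3bp had r = 0.61 within the 7 RANKL arrays and 0.59 within the 8 control arrays. Of the 7 RANKL arrays, that of day 1 was the highest for both genes, and r without it was not computed. Lgals3 was most like Gusb (0.85), Lyz2, lysozyme of macrophages (0.85), Actg1 (0.82), Rtn4 (0.81) and H13 (0.79). Lgals1 was most like Clec4d (0.91), Slfn2 (0.90), Cd14 (0.90), Bcap31 (0.88) and Rnh1 (0.85), and within control arrays its r with Rnh1 was 0.05. Lgals8 was most like Blcap (0.95), Akap8l (0.92), AU040320 (0.92), Cd83, a surface protein of activated antigen-presenting cells (0.91), and Stam (0.89). Lgals9 and Lgals3 had r = 0.01.

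Interferon-induced genes, to which Lgals9 and Lgals3bp belong by what is known of them, were set beside them as a list of 32 genes, of which 25 are on the array. Of these, 8 were past the threshold over the 4 days and lower with RANKL, and 0 were higher (0.539% and 0.555% of all probe sets). The list had a median difference of -0.82, beside 0.003 over the 8251 genes. The 4 with the largest differences were Usp18, which removes the ubiquitin-like protein ISG15 (-1.68 ± 0.31, limma adjusted p = 0.0262), Ifi47 (-1.66 ± 0.25, 0.00844), Isg20 (-1.65 ± 0.30, 0.0226) and Irf7 (-1.55 ± 0.43, 0.138). By day, the median was -0.27 (day 1), -1.19 (day 2), -0.76 (day 4) and -1.10 (day 5). The place of Lgals9 among them is a description, since its day 5 signal is taken to be among the values the genes were selected on. It lay below 21 of the 25 at day 2 and below all 25 at day 5, where the lowest of them had -3.04, and at day 1 it lay above 23 of them. The second Lgals9 probe set did not share this place at day 5, where it had -0.52 and 16 of the 25 lay below it. Of the 25, 13 lay below Lgals3bp at day 1, 20 on day 2, 8 on day 4 and 14 at day 5.

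In control cells, between days 1 and 2 and days 3 and 4, 9 of the 25 fell and 0 rose, with a list median of -0.59. Of all probe sets, 6.47% fell and 8.55% rose. Lgals9 (0.06) and Lgals3bp (0.09) lay above 24 of the 25. By array, the mean log2 signal of the list was 8.37 at RANKL day 1 and 7.01 to 7.47 on the later RANKL arrays, and 7.42 to 8.70 on the control arrays. It was correlated with Lgals9 at r = 0.84 within the 7 RANKL arrays and 0.27 within the 8 control arrays, and with Lgals3bp at 0.73 and 0.22. The RANKL values of r include the day 1 array, the highest of the 7 for the list and for both genes. Lgals9 had 1058 there and 137 to 637 later, and Lgals3bp had 1724 and 980.3 to 1475. How far r rests on that 1 array was not tested.

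**Figure D4:**
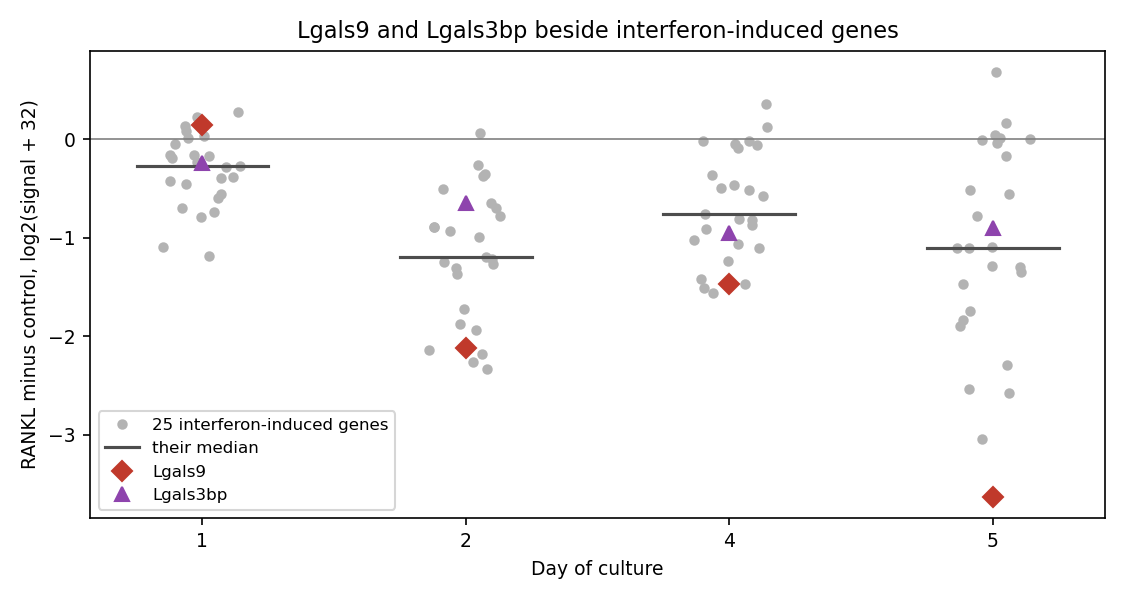
RANKL minus control difference on the log2(signal + 32) scale at days 1, 2, 4 and 5 for 25 interferon-induced genes (grey points, spread sideways for legibility, with a bar at their median), the first Lgals9 probe set (diamonds) and Lgals3bp (triangles). Lgals9 is at 0.15 at day 1 and at -3.63 at day 5, below all 25 there, while Lgals3bp stays between -0.95 and -0.24.

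Of 34 listed proteins that galectins are described to bind, 28 are on the array. Over the 4 days 1 was past the threshold and higher and 2 were lower (0.555% and 0.539% of all probe sets), with a median of -0.04. Itgav, the integrin alpha v chain, was higher (1.33 ± 0.14, limma adjusted p = 0.000958). Its probe set is also of the f class, whose probes can pick up related sequences. By day its difference was 0.23 (day 1), 0.125 (day 2), 1.70 (day 4) and 3.24 (day 5, against 1 control array). Nrp1, a semaphorin and VEGF co-receptor (-1.56 ± 0.24, 0.00971), and Itgam, the alpha chain of the macrophage integrin Mac-1 (-1.08 ± 0.19, 0.0171), were lower. Basp1 had -0.77 ± 0.20 and did not pass (0.112). In control cells, 7 of the 28 rose between days 1 and 2 and days 3 and 4, and Itgav fell (8.55% of all probe sets rose and 6.47% fell). Lamp2, the lysosomal membrane glycoprotein, rose by 1.88 ± 0.20 (limma adjusted p = 0.000246); it was picked after the values were seen.

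Enzymes that branch glycans, add galactose or cap it with sialic acid, and so make or mask galectin ligands, gave 0 of 23 (32 listed) past the threshold with RANKL on any day and over the 4 days (limma), with a 4-day median of -0.01. At an unadjusted p under 0.05, 4 of the 23 passed over the 4 days. The largest differences were those of St3gal6 (-1.46 ± 0.35, adjusted p = 0.0863), Man1a (-0.65 ± 0.21, 0.231), B4galt6 (-0.64 ± 0.20, 0.191) and St3gal4 (-0.40 ± 0.17, 0.394). With culture time in control cells 5 of 23 rose (B4galt1, B4galt6, B3gnt2, St3gal3 and St6gal1), where 8.55% of all probe sets did. The last, which adds alpha-2,6-linked sialic acid, rose by 2.83 ± 0.33 (limma adjusted p = 0.000369). St6gal1 rose in RANKL cells as well, by 2.50 ± 0.33 (limma adjusted p = 0.000965).

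The other galectin genes on the array, Lgals2, Lgals4, Lgals7 and the galectin-related Lgalsl, reached at most 167 on any array. Of these 4, 0 were past the threshold in any of the 8 comparisons (limma), and at an unadjusted p under 0.05 between 0 and 2 passed in each. Their 4-day differences ran from -0.11 for Lgals7 to 0.22 for Lgalsl. Lgalsl was above all 5 control arrays of days 2, 4 and 5 (72.8 to 88.7) on 5 of the 6 RANKL arrays of those days (68.3 to 163). How common this is among all probe sets was not counted, so nothing is read from it about Lgalsl.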

How the data were processed

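The authors computed the deposited signals, linear intensity values per probe set, with MAS5, per the submitters' processing notes; the version is not given in the sources used here. The authors' scaling was read from the values: all 15 arrays had a 2% trimmed mean of 500. They were used as they stand. Of 12488 probe sets, 66 manufacturer's controls were left out; the other 12422 were tested as log2(signal + 32), with no filter on dim signals, with limma 3.58.1 in R 4.3.3 (lmFit with 1 mean per group, then eBayes with an intensity trend; 6 residual and 5.39 prior degrees of freedom). A group of 1 array takes its spread from the other groups. P-values are two-sided, with Benjamini-Hochberg adjustment over all probe sets within each of 8 comparisons and a threshold of 0.05. Fold changes are on the log2(signal + 32) scale, which understates those of dim probe sets. The annotation names 1 gene for 10833 probe sets; a listed gene is represented by its brightest probe set. All galectin probe sets were named, with up to 4 genes of each list by size of the 4-day RANKL difference, and the 5 genes most correlated with each galectin. The fit was tested on simulated data. The genes, lists and comparisons were chosen with earlier results of these data known. Arrays were not paired by replicate number in the main fit. Over 15 pairs of groups, replicate differences correlated at -0.17 to 0.12, which does not tell whether the replicates were cultured or run as pairs. The number of arrays limits precision.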

Additional observations from a re-analysis of the deposited data

How the results depend on the processing

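Over 1108 recomputed galectin differences the sign turned in 52, none of them a difference past the threshold, and of 165 recomputations of differences past it, 42 lost the call. The number of galectin probe sets past the threshold, of 6, was 2 at day 2. It was 0 with a pseudocount of 100 or with the beta-actin ratio as a covariate (added after the data were seen), and 1 after quantile normalization, in the upper 50% of probe sets (which leaves out the second Lgals9 probe set), with no intensity trend and with the replicate number as a block. Over the 4 days it was 2, and 1 with no trend or with the covariate. With culture time in control cells it was 0, and 1 (Lgals8) with a pseudocount of 1, in the upper 50% and with the replicate block (0.96). With culture time in RANKL cells it was 2, 1 after quantile normalization and 0 with the covariate. Leaving out each array gave 0 to 2 at day 2, 0 to 1 at day 4, 1 to 2 at day 5, 0 to 3 over the 4 days, 0 to 1 for control and 1 to 3 for RANKL culture time.

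Counts over all probe sets moved too. At day 2 the count was 106, 68 with no trend and 34 with the covariate (2 to 147 without single arrays). At day 4 it was 33 and 12 with the covariate (9 to 54). At day 5 it was 114, 244 in the upper 50% and 64 with the replicate block (52 to 355). Over the 4 days it was 136, 426 for days 2, 4 and 5 only, 218 in the upper 50%, 64 with the covariate and 432 without the day 1 pair, also added later (11 to 427). For late minus early it was 5, 2 against day 2 alone or without the day 1 pair, 12 in the upper 50% and 3 with no trend (2 to 21). For culture time in control cells it was 1866, 1202 against day 2 alone, 913 with the covariate and 1205 without the day 1 pair (1204 to 1931), and in RANKL cells 1839 and 1086 with the covariate (1146 to 1972). The block changed 2 galectin calls: that of the second Lgals9 probe set at day 2 was lost (-1.38), and Lgals8 in control cells passed. It changed no other galectin call.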
